A study of Mus musculus with 18 samples.

Results

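Ugi and UNG were measured in cells that carried AID without its activity. Of the 18 libraries of the series, 9 came from cells with the AID-E58Q-ER vector: 3 with Ugi, 3 with UNG and 3 with an empty vector (Control). All 9 were used, at the 674 of 679 positions of the reporter that had at least 1000 base calls of quality over 20 in every library of the series. At each position the 3 possible substitutions were counted, which gave 2022 combinations of position and substitution. A substitution is written by its coding-strand bases and position, as in G294T, and positions are numbered along the reporter's coding sequence.

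The cells were NIH-3T3, a mouse fibroblast line, transduced with retroviral vectors for the reporter mOrangeSTOP (an orange fluorescent protein gene with a stop codon in its frame), for AID or AID-E58Q fused to a tamoxifen-responsive receptor domain, and for Ugi, UNG or nothing. All groups were selected with puromycin or hygromycin and kept in 1 µM OHT, the ligand of that domain, for 11 days. The reporter was amplified with Pfu Ultra for 25 cycles, fragmented, and amplified for 10 cycles more as a sequencing library. The 3 groups used here are therefore Ugi with AID-E58Q, UNG with AID-E58Q and the empty vector with AID-E58Q, each with 1 library from experiments 1, 2 and 3. Whether an experiment was a transduction of its own is not stated in the labels, and the p-values below therefore cover the spread among these libraries alone, which may be technical. The libraries hold reporter DNA alone, so the levels of Ugi, UNG and AID-E58Q were not measured.

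AID deaminates cytosine in DNA and leaves uracil, which is copied as thymine. Uracil-DNA glycosylase, UNG, cuts uracil out and starts base excision repair, and Ugi, a small phage protein, binds UNG and blocks it. E58Q replaces the catalytic glutamate of AID, so these cells show what Ugi and added UNG leave in the reporter without AID-made uracil. The frequencies in the libraries with AID-E58Q are the background of the study.

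The 9 libraries held 24915866 to 91582288 calls, with a median coverage of 37439 to 125319.5 calls per position. A count of 0 at that coverage allows a frequency of up to 0.239 to 0.801 per 10000 calls, taking 3 counts as the limit. The calls come from amplified DNA with no molecular identifiers, so such limits and the intervals below cover counting error only. In the 3 libraries of experiment 3 the reads at the 15 positions 45 to 59 lay over 490000, with a highest value of 499939, and their coverage there may be capped.

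The experiments stood apart more than the arms did. Among all reads, 1.30%, 1.33% and 1.31% of bases fell below the quality limit in the Ugi, UNG and Control libraries of experiment 3, against 0.362% to 0.435% in those of experiments 1 and 2. Of the 2022 combinations of position and substitution, those over 0.1% numbered 7, 15 and 41 in the Ugi libraries of experiments 1, 2 and 3. The UNG libraries had 21, 20 and 54 and the Control libraries 14, 11 and 44. The lowest coverage of a library at a used position ran from 1029 to 8149 calls. At such positions 0.1% can be passed by few calls, so these counts depend on depth. Those over 0.1% in all 3 arms numbered 5 in experiment 1, 4 in experiment 2 and 31 in experiment 3. The 4 of experiment 2 (C52T, C143A, G527A and G602A) were all among the 5 of experiment 1, and 3 of them were among the 31 of experiment 3. In addition, the Ugi libraries of experiments 1 and 2 shared G294T at a frequency no other library approached. Several results that turn on G294T are given with and without it. Single libraries were left out in turn, but no Ugi comparison was fitted without both of these Ugi libraries. In the lists that follow, the values of an arm are in the order of experiments 1, 2 and 3.

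The reporter stretches around the positions that set the arms or the experiments apart are shown first, each from 10 bases before the substituted base to 10 after it, as the deposited reference bases give them. Capitals mark the trinucleotide with the substituted G in its middle. The first 8 are sites of G-to-A substitution between T and A. Among them G153A is shown as an exception, where Ugi did not lie apart from UNG. The last pair are the 2 positions with the highest frequencies of all.
G153A: ccgctaagcTGAaggtgacca
G159A: agctgaaggTGAccaagggtg
G303A: gggagcgcgTGAtgaacttcg
G306A: agcgcgtgaTGAacttcgagg
G330A: gcggcgtggTGAccgtgaccc
G336A: tggtgaccgTGAcccaggact
G381A: tctacaaggTGAagctgcgcg
G504A: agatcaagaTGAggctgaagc
G294T: gcttcaagtGGGagcgcgtga
G527A: aaggacggcGGCcactacacc

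Over the 9 libraries the background was 3.25 to 6.98 substitutions per 10000 calls. Averaged over positions, G>A was the most frequent type with 19.2% of the mean spectrum, followed by T>G with 16.1%, C>T with 11.1% and A>C with 9.38%. The C:G transitions are what uracil read as thymine on either strand would give, though their origin here was not tested. In the Ugi libraries they stood at 2.24, 2.31 and 3.66 per 10000 calls. They stood at 3.29, 2.73 and 4.03 in the UNG libraries and at 2.83, 2.13 and 3.76 in the Control libraries. The 3 ranges overlapped. Ugi was 0.941-fold of Control in these transitions (log2 -0.09, exact two-sided permutation p = 0.9), and UNG was 1.17-fold of Control (log2 0.22, exact p = 0.5). In experiments 1, 2 and 3 the Ugi-to-Control ratios were 0.790, 1.08 and 0.972, and the UNG-to-Control ratios were 1.16, 1.28 and 1.07. With 3 libraries against 3, no such test can give a p below 0.1. These tests between arms, here and below, did not pair libraries by experiment, so the spread between experiments enters their p-values.

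**Figure D1:**
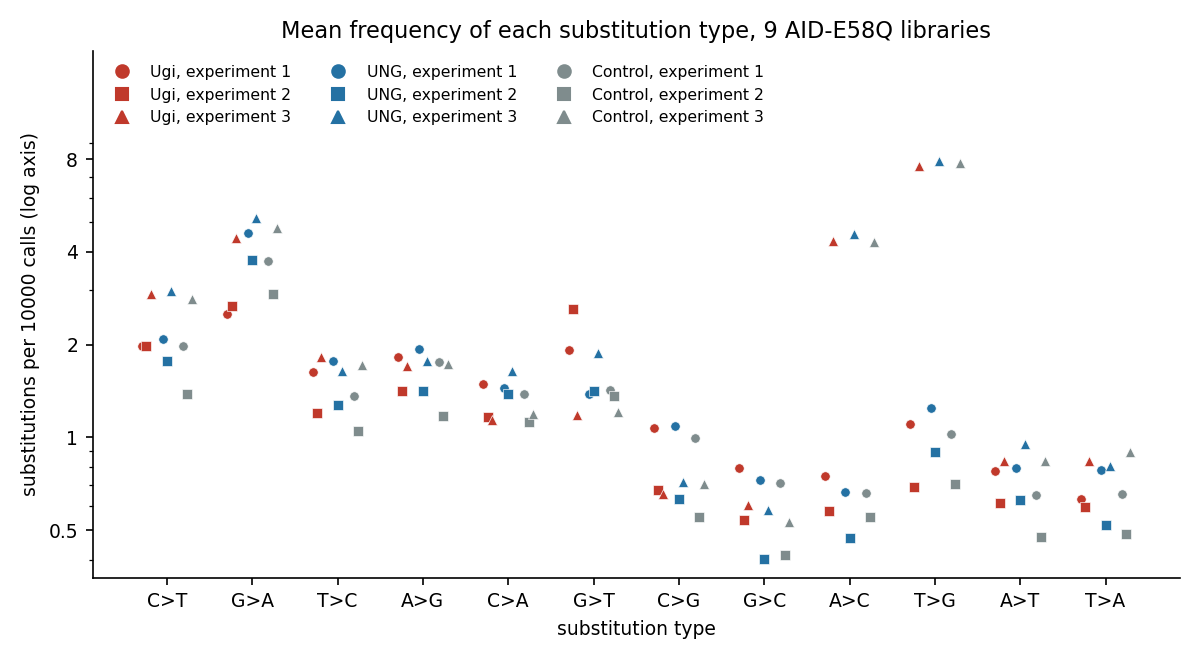
Mean frequency of the 12 substitution types over the 674 positions (substitutions per 10000 calls, log axis) in the 9 AID-E58Q libraries, with Ugi left, UNG in the middle and Control right within each type, and 1 point per library. The A>C and T>G points of experiment 3 (triangles) lie between 4.31 and 7.90, above all those of experiments 1 and 2, which lie at 1.25 or less, in all 3 arms.

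The 2 types of C:G transition did not behave alike. C>T, a change of the coding-strand C, stood at 1.98, 1.98 and 2.92 per 10000 calls in the Ugi libraries, at 2.08, 1.77 and 2.99 in the UNG libraries and at 1.99, 1.39 and 2.81 in the Control libraries. G>A is what a change of the C opposite would give, though which strand had changed was not tested. It stood at 2.51, 2.66 and 4.45 in the Ugi libraries. In the UNG libraries it stood at 4.6, 3.76 and 5.14, and in the Control libraries at 3.74, 2.93 and 4.79. In every experiment the Ugi library had the lowest G>A of the 3 and the UNG library the highest. The means were 3.21 ± 1.08 with Ugi, 4.5 ± 0.696 with UNG and 3.82 ± 0.930 with Control (SD, n = 3 each).

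Of the types other than C>T, G>A, A>C and T>G, none passed 2.62 per 10000 calls in any of the 9 libraries. C>A stood at 1.49, 1.16 and 1.14 per 10000 calls with Ugi, at 1.45, 1.38 and 1.64 with UNG and at 1.39, 1.12 and 1.19 with Control. G>T, the change that oxidised guanine is known for, stood at 1.92, 2.62 and 1.18 with Ugi, at 1.38, 1.41 and 1.88 with UNG and at 1.42, 1.36 and 1.21 with Control. Without G294T, described further on, the Ugi values of G>T were 1.47, 2.10 and 1.18. C>G, the transversion that can follow when UNG has removed a deaminated cytosine, stood at 1.07, 0.676 and 0.656 with Ugi, at 1.09, 0.631 and 0.718 with UNG and at 0.995, 0.552 and 0.704 with Control. Its level was highest in experiment 1 in each arm. G>C lay between 0.404 and 0.796 over the 9 libraries, A>T between 0.474 and 0.955, T>A between 0.485 and 0.895, A>G between 1.17 and 1.93 and T>C between 1.05 and 1.82.

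A limma fit to the 12 types called 0 of 12 (0.0%) in Ugi over Control, 0 of 12 (0.0%) in UNG over Control and 0 of 12 (0.0%) in Ugi over UNG. At an unadjusted p under 0.05 the count was 0 in each as well, and the smallest adjusted p-values from limma were 0.990, 0.973 and 0.957. The log2 fold changes ran from -0.27 to 0.45 for Ugi over Control, where 11 of 12 types were higher, and from -0.04 to 0.29 for UNG over Control, where 11 of 12 were higher. The lowest value for Ugi was G>A and the highest was G>T at 0.45, which was 0.21 without G294T and then below G>C at 0.24.

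Libraries of the same experiment deviated together, so the experiment number was also used as a block. In that fit G>A was called lower in Ugi than in UNG, alone among the 12 types (1 of 12, 8.33%; log2 -0.53, SE 0.12, adjusted p = 0.00351, limma). The ratio of Ugi to UNG was 0.547 in experiment 1, 0.707 in experiment 2 and 0.865 in experiment 3. Without the block the same log2 difference had an SE of 0.29 and an adjusted p of 0.957 in limma. Against Control the block called 0 types for either arm (G>A in Ugi over Control: log2 -0.27, adjusted p = 0.178; in UNG over Control: log2 0.25, adjusted p = 0.203, limma).

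A type and its complement differ only in the strand that is read, and 5 of the 6 such pairs were unequal across the 9 libraries, or 4 of 6 without G294T. The ratio of G>A to C>T was 1.27, 1.34 and 1.52 in the Ugi libraries, 2.21, 2.12 and 1.72 in the UNG libraries and 1.89, 2.11 and 1.7 in the Control libraries. All 9 ratios were above 1, the 3 of Ugi being the lowest of all, and the geometric mean was 1.73 (exact sign-flip test over libraries, p = 0.00391, adjusted over the 6 pairs 0.00781). That p is the smallest that 9 libraries can give. T>G exceeded A>C 1.60-fold and C>G exceeded G>C 1.33-fold, both in 9 of 9 libraries with the same exact p of 0.00391. The libraries of an experiment deviated together, so the 9 are not fully independent. G>T over C>A had a geometric mean of 1.18 (8 of 9 libraries, exact p = 0.0313, adjusted 0.0375). Without G294T it was 1.11 (7 of 9 libraries, exact p = 0.0703, adjusted 0.0844) and no longer passed. A>G over T>C had a geometric mean of 1.10 (8 of 9, exact p = 0.0117, adjusted 0.0176). A>T over T>A, at 1.06 in 6 of 9 libraries, did not pass (exact p = 0.168). The complements lie at different positions with different neighbours, so strand and sequence context cannot be told apart here.

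The background varied with the bases next to a site. C>T ranged from 0.553 per 10000 calls in TCC (17 positions) to 5.97 in GCG (18 positions), a ratio of 10.8 between the lowest and highest of its 15 trinucleotides with at least 3 positions. G>A ranged from 0.623 in AGG (24 positions) to 8.76 in TGA (13 positions), a ratio of 14.1. The other types spread less. Their ratios of highest to lowest were 4.87 for C>A (ACC over CCA) and 4.57 for G>T (GGG over TGG, or 3.73 without G294T, AGC over TGG). They were 2.59 for C>G (ACA over CCG) and 3.25 for G>C (TGT over CGG). ACC holds C143A, which passed 0.1% in all 3 arms in experiments 1 and 2. No C>A ratio without that site is given here, so site and neighbours cannot be told apart in it. At A:T base pairs the ratios were 5.88 for A>T (GAT over TAA), 3.06 for A>G (CAG over AAG) and 2.51 for A>C (CAC over GAG). They were 2.50 for T>C (GTG over TTC), 2.1 for T>G (GTT over GTC) and 2.00 for T>A (ATG over GTG). The A>C and T>G means were raised by experiment 3, as described further on. By the median over the 9 libraries, A>C stood at 0.766 in CAC and 0.688 in GAG. T>G stood at 0.827 in GTT and 0.788 in GTC.

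C>T was high after G in every library. At the 59 such positions it stood at 3.74, 3.52 and 5.76 per 10000 calls in the Ugi libraries, at 3.59, 2.78 and 5.69 in the UNG libraries and at 3.51, 2.34 and 5.28 in the Control libraries. At the 38 positions after T it lay between 0.891 and 1.36 over all 9 libraries. C>T was also higher in CpG, the dinucleotide that carries methylation in mammalian DNA. It was 3.15, 3.35 and 4.49 in CpG with Ugi, 3.76, 3.29 and 4.88 with UNG and 3.30, 2.58 and 4.41 with Control. Outside CpG no library passed 2.38. The arms overlapped in each of these sets, and the exact p-values for Ugi over Control were 0.4 after G and 0.7 in CpG.

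G>A depended on the base that follows, and the arms parted in 1 of the 4 cases. Before A (58 positions) it stood at 1.38, 1.31 and 5.13 per 10000 calls in the Ugi libraries, at 5.89, 6.41 and 7.44 in the UNG libraries and at 5.02, 3.21 and 6.47 in the Control libraries. The Ugi and UNG libraries did not overlap. Ugi was 0.321-fold of UNG (exact p = 0.1, the smallest this design allows) and 0.447-fold of Control (exact p = 0.3), and UNG was 1.39-fold of Control (exact p = 0.3). At the 147 other G positions Ugi was 0.944-fold of UNG (exact p = 0.9). Before C (60 positions) the libraries lay between 4.6 and 6.69, before G (62) between 1.18 and 2.56, and before T (25) between 1.7 and 3.96, with overlapping arms in each. The set before C holds G527A, described further on, which raised its level. Values of that set without G527A are not given here.

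**Figure D2:**
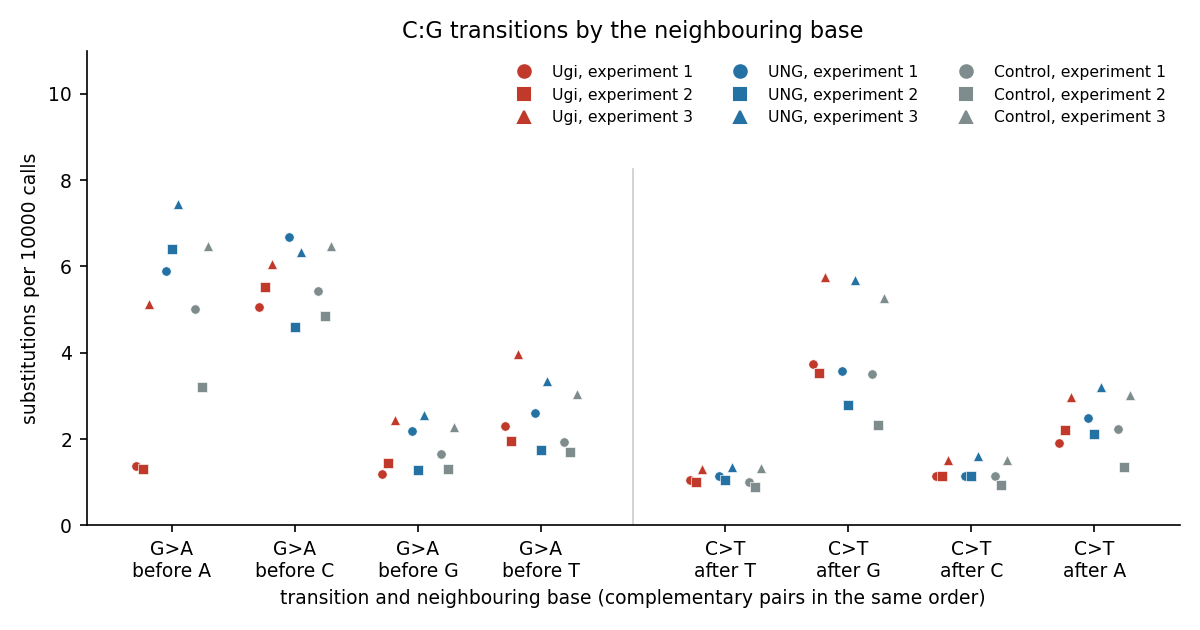
C:G transitions per 10000 calls by the neighbouring base: G>A by the base after the G (left) and C>T by the base before the C (right, complementary order), with 1 point per AID-E58Q library and Ugi left, UNG in the middle and Control right in each set. Before A, the Ugi libraries of experiments 1 and 2 lie at 1.38 and 1.31 and the other 7 libraries between 3.21 and 7.44.

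Within GA the preceding base mattered too, and the ordering of the arms was the same for CGA and TGA. In CGA (21 positions) G>A stood at 2.25, 2.19 and 5.74 per 10000 calls with Ugi, at 6.53, 7.59 and 7.75 with UNG and at 5.65, 4.16 and 6.15 with Control. In TGA (13 positions) it stood at 1.26, 1.26 and 9.11 with Ugi, at 12, 13.9 and 14 with UNG and at 9.83, 5.04 and 12.5 with Control. The Ugi libraries of experiments 1 and 2 lay below their own mean over all G positions here, and the other 7 libraries lay above theirs. In AGA (9 positions) and GGA (15) the levels were lower, between 0.503 and 4.84 and between 0.601 and 3.51 over the 9 libraries. Ugi was the lowest arm in each experiment there too, while the order of UNG and Control varied. Ugi was 0.443-fold of Control in AGA and 0.498-fold in GGA, against 0.581-fold in CGA. C>T in TCA (12 positions), the complement of TGA, lay between 0.877 and 1.62 in all 9 libraries.

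The TGA means were 3.88 ± 4.53 with Ugi, 13.3 ± 1.12 with UNG and 9.12 ± 3.77 with Control (SD, n = 3 each). TGA was taken up because its mean G>A over the 9 libraries was the highest, to which the UNG and Control libraries contributed most, so the differences between arms are given without a test. Ugi was 0.184-fold of UNG at these 13 sites, with ratios of 0.105, 0.0911 and 0.649 in experiments 1, 2 and 3. Ugi was 0.286-fold of Control, with ratios of 0.128, 0.250 and 0.729. UNG was 1.56-fold of Control, with ratios of 1.22, 2.75 and 1.12. Without G>A at TGA, C:G transitions were 2.27, 2.34 and 3.49 with Ugi, 3.02, 2.38 and 3.71 with UNG and 2.61, 2.04 and 3.49 with Control. At TGA each of the 3 orderings held in all 3 experiments, and the distance of Ugi from the rest was largest in experiments 1 and 2, the libraries that also share G294T.

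At the single sites the 2 low Ugi libraries lay below the 7 others at 12 of 13 TGA positions. The exception was G153A, with 0.735, 0.861 and 2.72 per 10000 calls in Ugi, against 0.714, 0.822 and 2.90 in UNG and 1.40, 1.35 and 3.95 in Control. The same ordering was seen at 17 of 45 other GA positions, at 23 of the G>A positions outside TGA (17 of them in GA), and in 88 of all 2022 combinations of position and substitution (4.35%). These counts describe a pattern that was seen before it was counted. G303A had 1.48, 1.65 and 20.4 per 10000 calls with Ugi, 27.0, 39.4 and 24.3 with UNG and 28.8, 11.3 and 24.3 with Control. Behind the Ugi values stand 8 calls of 54021, 9 of 54383 and 259 of 127192 (95% Wilson intervals 0.75 to 2.92, 0.871 to 3.15 and 18 to 23).

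G504A had 0.815, 1.30 and 21.3 per 10000 calls with Ugi, 22.9, 28.3 and 24.3 with UNG and 26.3, 11.4 and 24.3 with Control. G330A had 1.78, 2.29 and 17.2 with Ugi, 28.1, 30.3 and 29.9 with UNG and 17.8, 12.4 and 20.01 with Control. In experiment 3 the Ugi library lay close to the other arms at G504A and below both at G330A. G336A took another course, with 2.43, 2.27 and 11.9 with Ugi, 19.7, 25.7 and 22.7 with UNG and 3.19, 2.77 and 14.7 with Control. There the Control libraries of experiments 1 and 2 were nearly as low as those of Ugi, and UNG was the highest arm in each experiment.

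All 13 TGA sites put the G at the third base of a codon. In 11 of them G>A is synonymous, with 6 valine and 5 leucine codons, and in the other 2 (G306A and G504A) it turns methionine into isoleucine. The sites also differed by the base that follows TGA, a split chosen after the values were seen and not tested. The 5 sites followed by C, G or T had 1.84, 2.05 and 16.0 per 10000 calls with Ugi, 25.0, 31.4 and 24.7 with UNG and 17.6, 8.83 and 21.1 with Control. The 8 followed by A had 0.892, 0.768 and 4.80 with Ugi, 3.87, 2.92 and 7.38 with UNG and 4.96, 2.67 and 7.08 with Control. Mean levels of single sites ran from 1.72 to 7.78 in the group followed by A and from 11.7 to 19.9 in the other, with no overlap. Of the sequences printed above, G159A, G303A, G330A, G336A and G504A belong to the higher group.

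**Figure D3:**
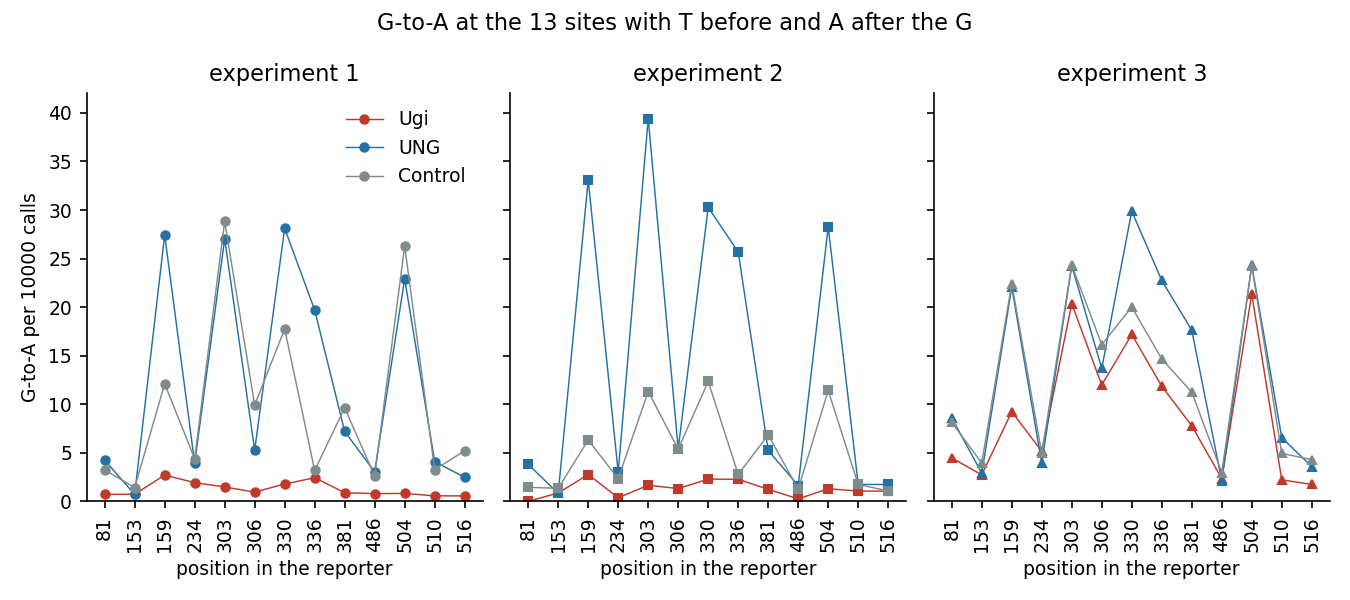
G-to-A per 10000 calls at the 13 TGA sites, by position in the reporter, with 1 panel per experiment and 1 line each for Ugi (red), UNG (blue) and Control (grey). In experiments 1 and 2 the Ugi line stays at 2.76 or below at all sites, while in experiment 3 it follows the other arms with a highest value of 21.3.

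Of the 2022 combinations, 1929 had at least 10 calls over the 9 libraries and were tested. The edgeR quasi-likelihood fit with arm as its only term called 0 of 1929 (0.0%) for Ugi over Control, 0 of 1929 (0.0%) for UNG over Control and 0 of 1929 (0.0%) for Ugi over UNG. At an unadjusted p under 0.05, edgeR had 23, 25 and 27, and DESeq2 called 1 (0.0518%), 0 (0.0%) and 2 (0.104%). Summed by substitution and trinucleotide, edgeR called 0 of 180 contexts (0.0%) in each of the 3 comparisons, with 1, 0 and 3 at an unadjusted p under 0.05, and DESeq2 called 1 (0.556%), 0 (0.0%) and 0 (0.0%). The context was G>T in GGG, which holds G294T (log2 2.90, adjusted p = 0.0117, DESeq2). The median log2 fold change over the 1929 was 0.08 for Ugi over Control and 0.14 for UNG over Control. Scaling by TMM moved these to -0.05 and -0.05, a shift of all values that single fold changes carry.

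With experiment as a block, edgeR called 1 combination for Ugi over Control (0.0518%), 1 for UNG over Control (0.0518%) and 10 for Ugi over UNG (0.518%). For Ugi over Control it was G294T (log2 5.33, adjusted p = 9.51e-06). For UNG over Control it was the synonymous G336A (log2 2.21, SE 0.42, adjusted p = 0.00888), higher with UNG in each experiment. For Ugi over UNG, G294T was higher (log2 4.65, adjusted p = 3.44e-04) and the other 9 were lower. All 9 were G>A before A, 6 of them in TGA and 3 in CGA. The TGA sites were G159A (log2 -2.76), G303A (-2.57), G336A (-2.50), G330A (-2.47), G504A (-2.32) and G381A (-1.72), with adjusted p-values from 1.51e-04 to 0.0355 in edgeR. The CGA sites were G472A (log2 -2.41), G364A (-1.78) and G409A (-1.67), of which G472A and G364A turn glutamate into lysine and G409A turns aspartate into asparagine. At G472A the Ugi libraries had 1.31, 1.75 and 3.39 per 10000 calls, against 10.4, 16.8 and 10.8 in UNG and 5.11, 4.07 and 3.18 in Control. At the level of contexts the block called 0 of 180 (0.0%) in each comparison, and TGA had a log2 of -2.34 for Ugi over UNG (adjusted p = 0.0950, edgeR).

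How many combinations passed rested on experiment 3. Without its 3 libraries edgeR called 7 of 1694 (0.413%) for Ugi over Control, 3 (0.177%) for UNG over Control and 13 (0.767%) for Ugi over UNG. Among 178 contexts it called 2 (1.12%), 0 (0.0%) and 3 (1.69%). This alternative was chosen after seeing the data. For Ugi over Control, G294T was higher (log2 5.95) and 6 TGA sites were lower: G504A (-4.12), G303A (-3.66), G381A (-2.93), G330A (-2.87), G306A (-2.74) and G159A (-1.75). For UNG over Control, T596C (log2 3.23), G336A (2.92) and G256A (2.33) were higher. Leaving out only the Ugi library of experiment 3 gave 1 call for Ugi over Control and 4 for Ugi over UNG. In that setting G>A in TGA passed among the contexts. Since the remaining libraries are those that share standing substitutions, experiments 1 and 2 were also summed to 1 library per arm, and edgeR then called 0 combinations and 0 contexts in each comparison, with or without the block.

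The same 13 sites were read in the 9 libraries with active AID, where cytosine deamination adds to the background. There G>A in TGA stood at 5.54, 4.18 and 27.7 per 10000 calls with Ugi, at 3.88, 15 and 11.8 with UNG and at 11.8, 7.81 and 17.9 with Control. The UNG library of experiment 1 was the lowest of these, below its AID-E58Q counterpart at 12, and the Ugi libraries of experiments 2 and 1 followed, both above their AID-E58Q counterparts. The Ugi library of experiment 3 was the highest of all 18. The effect of each arm over Control was also set against the same effect with AID, as an interaction over the 180 contexts in edgeR. It called 1 (0.556%) for Ugi and 0 (0.0%) for UNG, and DESeq2 called 3 (1.67%) and 0 (0.0%). The 1 context was C>G in GCT, described further on, and not G>A in TGA.

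G527A, the combination with the highest mean over the 9 libraries, was shared across arms. It turns glycine 176 into aspartate and stood at 112, 114 and 36.8 per 10000 calls with Ugi, at 104, 106 and 39.6 with UNG and at 107, 107 and 38.8 with Control. Within each experiment the counting intervals of the arms overlapped, and experiment 3 was lower (log2 -1.5, adjusted p = 1.30e-04, edgeR). C143A (threonine to asparagine) had 29.8, 10.8 and 18 with Ugi, 47.7, 45 and 7.32 with UNG and 47.0, 41.6 and 5.07 with Control, and was lower in experiment 3 as well (log2 -1.80, adjusted p = 9.52e-04, edgeR). C52T (arginine to cysteine) lay between 19 and 28 and G602A (glycine to aspartate) between 15.8 and 29 in all 9 libraries. G>A in GGC, the trinucleotide of G527A, was also read without it, at 27 positions that hold G602A and G689A. There the libraries of experiments 1 and 2 lay between 3.39 and 4.81 and those of experiment 3 between 6.37 and 6.58, with overlapping arms. The UNG library of experiment 2, at 3.55, lay below its own mean G>A of 3.76, and the others lay above theirs.

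G294T, which replaces tryptophan 98 by cysteine, was at 93.5 and 108 per 10000 calls in the Ugi libraries of experiments 1 and 2, and at 1.38 in that of experiment 3. It was at 1.58, 0.403 and 2.25 with UNG and at 2.00, 1.18 and 0.701 with Control. The Wilson intervals of the 2 high libraries were 85.9 to 102 (520 of 55589 calls) and 99.4 to 117 (590 of 54760), so they overlapped. Combinations high in just 1 pair of libraries of an arm were counted by a set limit. Both libraries had to reach 0.1% and lie at least 5 times above every other library. Smaller rises were not counted: T596C, given below, was raised in UNG experiments 1 and 2 but lay under 0.1% in experiment 2. By this limit only G294T was found, with 1 combination in Ugi experiments 1 and 2 and 0 in the other 8 pairs. In the fit without the block its difference was log2 5.69 with an SE of 1.35 (unadjusted p = 0.0013, adjusted p = 1.00, edgeR). The site carried the whole context signal of G>T in GGG, which was 8.23, 9.17 and 1.03 with Ugi, 1.02, 0.704 and 1.55 with UNG and 0.979, 0.984 and 0.888 with Control. Without that position the 9 libraries lay between 0.729 and 1.5.

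**Figure D4:**
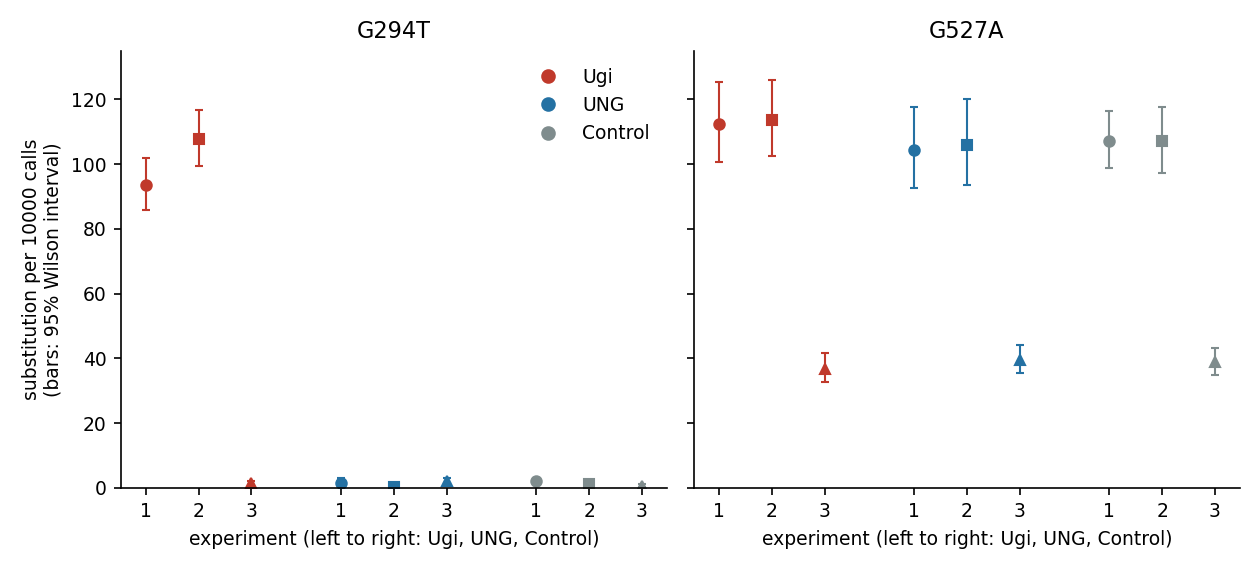
G294T (left) and G527A (right) per 10000 calls in each AID-E58Q library, from left to right Ugi, UNG and Control with experiments 1, 2 and 3 in each, and bars for the 95% Wilson interval. G294T reaches 93.5 and 108 in 2 Ugi libraries and at most 2.25 in the other 7, while G527A lies between 104 and 114 in experiments 1 and 2 of every arm and between 36.8 and 39.6 in experiment 3.

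Since no combination passed without the block, those with the smallest unadjusted p are named. For Ugi over Control these were G294T, C483G and G432C, and for UNG over Control G432C, A250T and T596C. None had an adjusted p under 0.05 in edgeR. C483G, a silent change in an alanine codon, had 0 calls of 172492 in the 3 Ugi libraries, against 10 of 170881 in UNG and 19 of 225865 in Control. With 3 counts over the arm as the limit for Ugi, the Control frequency was 4.84-fold of that limit. The counting error of Control and the spread among libraries were not allowed for. G432C had 0.868, 0.419 and 0.478 per 10000 calls with Ugi and 0.677, 0.514 and 0.369 with UNG, against 2.24, 4.32 and 1.04 with Control, which lay above both arms. T596C had 11.3, 6.21 and 1.43 with UNG, against 0.987, 0.792 and 1.75 with Control, and in experiment 3 the UNG library was the lower one.

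At the positions chosen to show AID activity, G231A, G231C, G231T and C151T did not pass 6.36 per 10000 calls in any of the 9 libraries. At the in-frame stop codon 77, G231A leaves a stop, and G231C and G231T give tyrosine. G231C stood at 1.71, 0.737 and 1.55 per 10000 calls with Ugi, at 1.34, 0.419 and 1.82 with UNG and at 1.05, 0.508 and 0.735 with Control. G231T lay between 1.05 and 3.04 in the 9 libraries and G231A between 1.81 and 4.97. C151T, at the C of an AGCT, had 3.45, 2.50 and 5.78 with Ugi, 3.19, 2.18 and 6.36 with UNG and 2.12, 1.57 and 6.02 with Control. It lay above the mean C>T of the same library in all 9 libraries. It was higher in experiment 3 (log2 1.33, adjusted p = 4.07e-04, edgeR) in all arms.

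AID prefers WRCY and its complement RGYW (with W for A/T, R for A/G and Y for C/T). At the 36 such positions they stood at 3.03, 3.10 and 5.08 per 10000 calls with Ugi, at 3.59, 2.43 and 5.04 with UNG and at 3.10, 2.43 and 5.06 with Control. Ugi was 1.08-fold of Control (exact p = 0.8) and UNG 1.05-fold (exact p = 0.9). Set against the other C:G positions of the same library, the ratio was 1.40, 1.39 and 1.44 with Ugi, 1.10, 0.883 and 1.28 with UNG and 1.10, 1.16 and 1.39 with Control. It was above 1 in 8 of 9 libraries (geometric mean 1.22, exact sign-flip p = 0.0156), though over summed calls it was 1.07 (exact p = 0.340). The 36 positions hold G602A, which passed 0.1% in all 3 arms of every experiment, and no ratio without it alone is given here. The denominators hold G527A and C52T, which did so too, and the GA positions, at which the Ugi libraries were low. At the 139 SYC/GRS positions, which AID avoids (with S for C/G), transitions stood at 1.16, 1.32 and 2.58 with Ugi, at 2.94, 2.79 and 3.41 with UNG and at 2.34, 1.65 and 2.92 with Control. Ugi was 0.705-fold of Control there (exact p = 0.3) and UNG 1.35-fold (exact p = 0.2). In AGCT (13 positions) Ugi was 1.22-fold of Control (exact p = 0.4). Transversions at the 30 WRC/GYW positions not followed by Y stood at 3.02, 2.15 and 1.80 with Ugi, at 2.64, 2.14 and 2.06 with UNG and at 2.05, 1.49 and 1.81 with Control. The UNG libraries all lay above those of Control, by 1.28-fold (exact p = 0.1, the smallest possible).

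Experiment number accounted for 93.8% of the sum of squares of the 12-type spectrum on the log2 scale and arm for 3.14%. An exact permutation test over 216 arrangements gave p = 0.0278 for experiment, the smallest it can give, and p = 0.139 for arm. Without experiment 3 the shares were 62.4% for experiment (exact p = 0.25) and 31.5% for arm (exact p = 0.167), each p the smallest possible there. In edgeR 412 of 1929 combinations (21.4%) and 112 of 180 contexts (62.2%) differed by experiment, and in limma 10 of 12 types (83.3%) did, all but C>A and G>T. The difference lay mainly at A:T base pairs. A>C stood at 0.748, 0.575 and 4.33 per 10000 calls with Ugi, at 0.664, 0.472 and 4.58 with UNG and at 0.660, 0.550 and 4.31 with Control. T>G stood at 1.10, 0.691 and 7.63 with Ugi, at 1.25, 0.896 and 7.90 with UNG and at 1.02, 0.705 and 7.78 with Control. Within experiment 3 the arms lay between 4.31 and 4.58 in A>C and between 7.63 and 7.90 in T>G.

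With arm as a term, experiment 3 was 8.43-fold of experiments 1 and 2 in T>G (log2 3.08, SE 0.10, limma) and 7.28-fold in A>C (log2 2.86, SE 0.10, limma). In all, 7 of 12 types were called higher (58.3%) and none lower, the others being C>T (1.57-fold), G>A (1.45-fold), T>A (1.40-fold), A>T (1.35-fold) and T>C (1.27-fold). At single positions 402 combinations were called higher and 52 lower, together 23.5% of 1929. The higher ones took in 94 of 101 T>G and 121 of 139 A>C, against 77 of 201 G>A and 42 of 219 C>T. The lower ones were mostly C>G (21 of 205) and G>T (15 of 195). T>G in experiment 3 was highest after G, at 9.61, 10.2 and 10.4 per 10000 calls in Ugi, UNG and Control, and lay between 6.05 and 7.83 after other bases. A>C was highest before C, at 5.71, 5.67 and 5.37.

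In the active-AID libraries 9 of 12 types (75.0%) and 595 of 1972 combinations (30.2%) were called between experiment 3 and experiments 1 and 2. There T>G was 7.92-fold (log2 2.98, limma) and A>C 7.49-fold (log2 2.90, limma) in experiment 3. No test of the difference from AID-E58Q was made. Experiment 3 also had the larger share of bases below the quality limit given above, whose part in the result was not tested. The single largest rises in experiment 3 were C57T (log2 7.11), T62G (5.84), T56A (5.55), G712A (5.43) and T56C (5.40). The largest falls were A58G (-5.21), A59C (-4.87), A59T (-4.12), C471G (-3.29) and C243G (-3.05). Of these, 7 lie between positions 56 and 62, beside or within the stretch where coverage may be capped. At A58G the coverage was 496811, 495415 and 496227 in Ugi, UNG and Control of experiment 3, against 6015 to 13992 in experiments 1 and 2, so the values of experiments 1 and 2 rest on far fewer calls there. T94G (phenylalanine to valine) was typical of the strong T>G sites, with 42 per 10000 calls in Ugi, 46.4 in UNG and 48.8 in Control of experiment 3, against 0.218 to 1.96 in experiments 1 and 2.

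Experiments 1 and 2 differed too. In edgeR, 7 of 1929 combinations (0.363%) separated them, 3 higher and 4 lower in experiment 1. Among the 180 contexts edgeR called 41 (22.8%), 39 higher and 2 lower in experiment 1, against 101 (56.1%) between experiment 3 and the other two. Of the 12 types, 8 were called higher in experiment 1 (66.7%), with C>G at 1.7-fold (log2 0.77) and G>C at 1.66-fold (log2 0.73) the furthest, in limma.

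**Figure D5:**
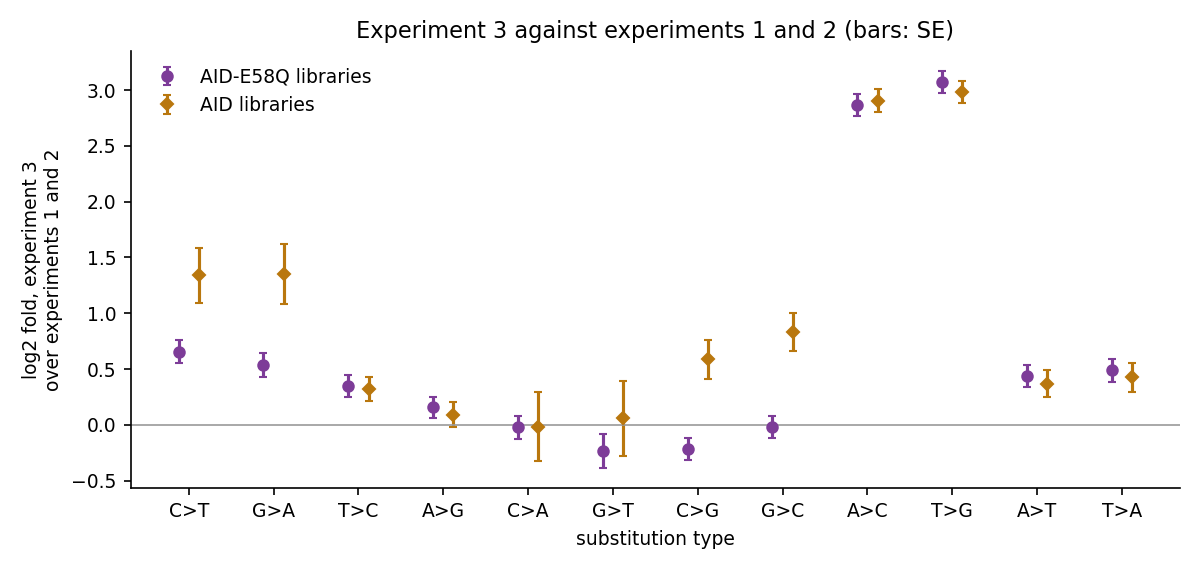
Log2 fold of experiment 3 over experiments 1 and 2 for each of the 12 substitution types, in the AID-E58Q libraries (circles) and the AID libraries (diamonds), with bars for the SE. T>G and A>C stand at 2.86 to 3.08 in the AID-E58Q libraries and at 2.90 to 2.98 in the AID libraries. No other type passes 0.66 in the AID-E58Q libraries.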

How the data were processed

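The deposited table gives for each library and reporter position the number of reads, the count of calls with quality over 20 and the counts of 12 substitutions, per the file headers. The authors also deposited fractions (substitution counts over passed calls); they equalled the ratio of the counts and were not used further. Tools named in the submitters' processing notes are CASAVA 1.7, Novoalign 2.07.04 and SAMtools 0.1.11; alignment settings: not given in the sources used here. No genome build applies to the reporter. The members and lists described here were chosen with earlier results of these data known.

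Frequencies per 10000 calls were averaged with equal weight per position. Counts per position and substitution, and summed per trinucleotide, were fitted with edgeR 4.0.16 (quasi-likelihood, offset log coverage, at least 10 calls over the libraries fitted; R 4.3.3) and with DESeq2 1.42.0; the 12 types with limma 3.58.1 on log2 frequencies. Adjusted p-values are Benjamini-Hochberg, threshold 0.05. Single values were compared by exact permutation (SciPy 1.17.1). Experiment numbers in the titles pair libraries: deviations from arm means correlated by 0.149 to 0.549 in all 9 same-experiment pairs and by -0.387 to 0.164 in 18 others. Replicates of an arm differed beyond sampling noise (chi-square per feature 2.21 to 8.83), and each was counted as its own library. With amplified DNA and no molecular identifiers, that spread cannot show whether experiments 1 and 2 came from separate cell pools.

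Named were up to 5 combinations per direction among calls, otherwise the 3 with the smallest unadjusted p; the 10 highest means; positions 231, 294 and 151; frequencies of at least 0.1% in 1 library and 5 times the highest other (0 found); and the trinucleotide extremes. On data simulated for Ugi over Control, edgeR recovered 177 of 199 combinations changed 8-fold with 8 false calls at a dispersion of 0.05 (1922 combinations) and 141 of 199 with 5 false calls at 0.3 (1916 combinations). Of 20 contexts changed 8-fold it recovered 19 with 2 false calls and 20 with 3 (180 contexts). The simulated libraries held no difference between experiments, unlike the real ones. These recoveries therefore do not show what the fits could detect in the real libraries. Alternatives were other normalizations, filters, tools, left-out libraries and the replicate block.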

Additional observations from a re-analysis of the deposited data

Results flagged for a closer look

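The effect of Ugi over Control with AID-E58Q was set against the same effect with active AID, as an interaction in edgeR over the 180 contexts. It was called in 1 of 180 (0.556%), and for UNG over Control in 0 of 180 (0.0%), with 20 and 1 contexts at an unadjusted p under 0.05 and 3 and 0 called by DESeq2. The context was C>G in GCT, with a log2 difference of -3.46 between the effect in AID and the effect in AID-E58Q (SE 0.73, adjusted p = 0.0480, edgeR). With AID-E58Q it stood at 1.29, 0.775 and 0.860 per 10000 calls in Ugi, and at 1.55, 0.488 and 1.24 in Control. With AID it stood at 1.58, 1.06 and 1.59 in Ugi, and at 15.5, 9.26 and 23.9 in Control. The Control libraries were higher with AID in each experiment. The UNG libraries had 1.33, 0.871 and 0.919 with AID-E58Q and 22.5, 12.04 and 46.01 with AID. The call was lost when any 1 of 13 of the 18 libraries was left out, and among the settings in the next part the count ran from 0 to 18.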

How the results depend on the processing

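Of 348 recomputed values of the main results, 298 kept their direction and side of the threshold, 39 moved, 7 no longer passed and 4 changed sign. Counts of combinations were 1 (DESeq2), 1 (replicate block) and 7 (without experiment 3) for Ugi over Control, 1 (block) and 3 (without experiment 3) for UNG over Control, and 2, 10 and 13 for Ugi over UNG. Leaving out 1 library gave 0 to 1, 0 and 0 to 4. Counts of contexts were 1 (DESeq2) and 2 (without experiment 3) for Ugi over Control and 3 (without experiment 3) for Ugi over UNG, and leaving out 1 library gave 0 to 2 and 0 to 3. Without the Ugi library of experiment 3 these context counts were 2 and 3. The block called 1 type for Ugi over UNG and changed no other type call. With all 18 libraries fitted, experiment separated 908 combinations. The count of interaction contexts for Ugi was 3 (DESeq2), 7 (TMM), 0 (robust), 2 (without the first and last 25 positions) and 18 (block), and 0 to 3 without 1 library. Ugi over Control in C:G transitions turned to log2 0.043 without substitutions over 0.1%, and leaving out 1 library gave -0.32 to 0.12. The hotspot ratio over summed calls was 1.07. Experiment took 96.5%, 95.7% and 93.7% of the spectrum without the Ugi, UNG or Control arm (exact p = 0.167) and 62.4% to 94.7% without 1 experiment (exact p = 0.25), each the smallest p possible, and arm took 2.61% to 31.5% without 1 experiment. Among uncalled single sites, the sign turned for G336A in Ugi over Control (-1.55 to 0.91 without 1 library). In UNG over Control it turned for G303A (-0.051 without experiment 2), G381A (-0.14 TMM, -0.10 block, -0.41 without experiment 3, -0.57 to 0.43 without 1 library), G504A (-0.10 without experiment 2, -0.0063 to 0.49 without 1 library) and G294T (-0.18 TMM, -0.66 without experiment 3, -0.36 to 0.62 without 1 library). Causes were not tested. At the median coverage, frequencies under 0.239 to 0.801 per 10000 calls were not detectable.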
